A study of Mus musculus with 2 samples.

Results

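The genes described here are 10 markers of the early stages of B cell development. They include the surrogate light chain genes Vpreb1, Vpreb2 and Igll1, and Vpreb3, a relative of VpreB. The others are the recombination genes Rag1, Rag2 and Dntt, and the surface proteins Il7r, Cd24a and Cd93. All 10 were chosen by name, and their probes were all non-control probes whose RefSeq accession maps to those symbols. This gave 12 probes in 21 spots for all 10 genes, of 20618 named genes with a probe on the array. The samples were murine B-ALL (acute lymphoblastic leukaemia of B cells) from bone marrow, sorted on SoNar, a fluorescent sensor that follows the ratio of NADH to NAD+ in the cytosol. The SoNar-high group held cells with a high ratio and the SoNar-low group cells with a low ratio. Both groups came from C57BL mice of 8 weeks, with no treatment beyond the sort in the labels, and each was measured on 1 single-colour (Cy3) Agilent mouse array. The SoNar-high sample is titled N-myc-high and the SoNar-low sample N-myc-low. The labels do not explain these titles, and they do not give the leukaemia model, the genotype of the mice or the number of mice pooled. With 1 array per group no test was made, and every difference below compares these 2 arrays. The number of arrays limits the precision.

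B cell progenitors build their antigen receptor in steps. In pro-B cells, IL-7 signalling through Il7r supports survival and growth while the Rag1 and Rag2 proteins cut beside the heavy chain gene segments. Terminal transferase (Dntt) adds bases where the segments are then joined. A successful heavy chain then pairs with the surrogate light chain, made of VpreB and lambda5 (Igll1), to form the pre-B cell receptor, which drives division and then gives way to light chain recombination and the mature receptor. Cd24a and Cd93 are surface proteins used in mouse marrow to separate immature stages from mature B cells.

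The surrogate light chain genes Vpreb1 and Vpreb2 are near-identical copies, so a transcript of either may bind the probe of the other, and their signals cannot be told apart with certainty. Their copied sequence also reaches upstream of the genes. The 250 bases before the annotated start of each, from RefSeq on the GRCm38.p6 build and read on the gene's strand, are shown because they make this overlap visible. The Vpreb1 stretch is chr16:16869256-16869505 on the minus strand and the Vpreb2 stretch is chr16:17980315-17980564 on the plus strand. Capitals mark the stretch that both hold.
Vpreb1: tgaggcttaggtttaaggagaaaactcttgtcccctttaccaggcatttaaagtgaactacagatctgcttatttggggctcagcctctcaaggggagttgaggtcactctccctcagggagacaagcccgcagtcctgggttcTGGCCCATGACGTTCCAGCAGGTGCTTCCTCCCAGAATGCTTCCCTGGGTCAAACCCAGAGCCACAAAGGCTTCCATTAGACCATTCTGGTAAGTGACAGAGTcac
Vpreb2: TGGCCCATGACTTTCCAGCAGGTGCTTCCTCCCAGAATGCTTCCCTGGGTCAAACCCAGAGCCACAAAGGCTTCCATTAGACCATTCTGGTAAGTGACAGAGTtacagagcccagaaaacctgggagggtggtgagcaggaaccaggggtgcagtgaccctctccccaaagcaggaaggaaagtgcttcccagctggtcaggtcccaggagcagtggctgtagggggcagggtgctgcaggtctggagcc
The shared stretch was 103 bases long, of which 102 were the same. It lay from 106 to 4 bases before the start of Vpreb1 and from 250 to 148 bases before that of Vpreb2, at the edge of the window, so it may go on beyond it.

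The 250 bases upstream of Igll1, chr16:16863986-16864235 on the minus strand of the same build, are shown for comparison, since this partner of VpreB lies next to Vpreb1 in RefSeq's gene order with 0 genes between them. Capitals mark the E-box letters CANNTG, the kind of site that basic helix-loop-helix factors such as E2A bind.
Igll1: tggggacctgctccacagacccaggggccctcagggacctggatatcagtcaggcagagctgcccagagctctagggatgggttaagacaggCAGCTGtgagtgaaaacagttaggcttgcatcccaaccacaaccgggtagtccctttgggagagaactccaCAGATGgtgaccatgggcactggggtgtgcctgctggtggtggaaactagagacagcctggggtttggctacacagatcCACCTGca
The letters CANNTG, which read the same on both strands, occurred 3 times upstream of Igll1, once, 88 bases before the start, upstream of Vpreb1, and at 232 and 60 bases before the start upstream of Vpreb2. All 8 of the genes with an entry in the RefSeq promoter table held them, as did 66.2% of 32851 promoters of the same length. The narrower form CAGGTG, searched on both strands and contained in CANNTG, occurred upstream of 4 of the 8, Vpreb1, Vpreb2, Igll1 and Rag1, and in 17.2% of all promoters. The Vpreb1 match at 88 bases and the Vpreb2 match at 232 bases both fall in the shared stretch. A match describes the letters and not a bound site. The longest stretch shared by Igll1 and Vpreb1 was 10 bases.

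The arrays differed in how much they detected. SoNar-high had 72.9% of its 43020 non-control spots well above background and SoNar-low 44.8%, with 0 saturated on either. The lowest processed signal flagged as well above background was 19.7 on SoNar-high and 46.4 on SoNar-low, and the highest one not so flagged was 27.4 on SoNar-high and 66.1 on SoNar-low. A signal between 27.4 and 46.4 therefore counts as detected on SoNar-high alone. The processed signal is the spot intensity after background subtraction, and levels are its log2 value minus the array's 75th percentile (525 on SoNar-high, 475 on SoNar-low). The median log2 difference of all 10517 genes measured on both arrays, SoNar-high minus SoNar-low, was -0.17. The arrays were scanned in different sessions, so scan session and group cannot be told apart. All 6 defining B lineage markers were well above background on both arrays. Cd79b, a signalling chain of the receptor, gave a processed signal of 14376 on SoNar-high and 12625 on SoNar-low, and its partner Cd79a gave 379 on SoNar-high and 440 on SoNar-low. Pax5, which maintains B cell identity, gave 226 on SoNar-high and 186 on SoNar-low on the 1 of its 2 probes that both arrays detected.

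Of the 10 genes, 5 were well above background on both arrays (Vpreb1, Vpreb3, Dntt, Cd24a and Cd93), against 51% of all named genes. Vpreb2 was so on SoNar-high alone, a pattern that 26.5% of all named genes shared, and 4 genes (Igll1, Rag1, Rag2 and Il7r) were so on neither array, against 22.5% of all named genes. No gene of the 10 was so on SoNar-low alone, as was the case for 0.0534% of all. The share detected on both arrays was thus near that of all genes, with fewer on SoNar-high alone and more on neither, in a group of only 10. In the plot of signals by gene, Vpreb3 and Cd24a sit far above the limits of both arrays, and Vpreb1, Dntt and Cd93 sit within 1 order of magnitude of the SoNar-low limit.

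**Figure D1:**
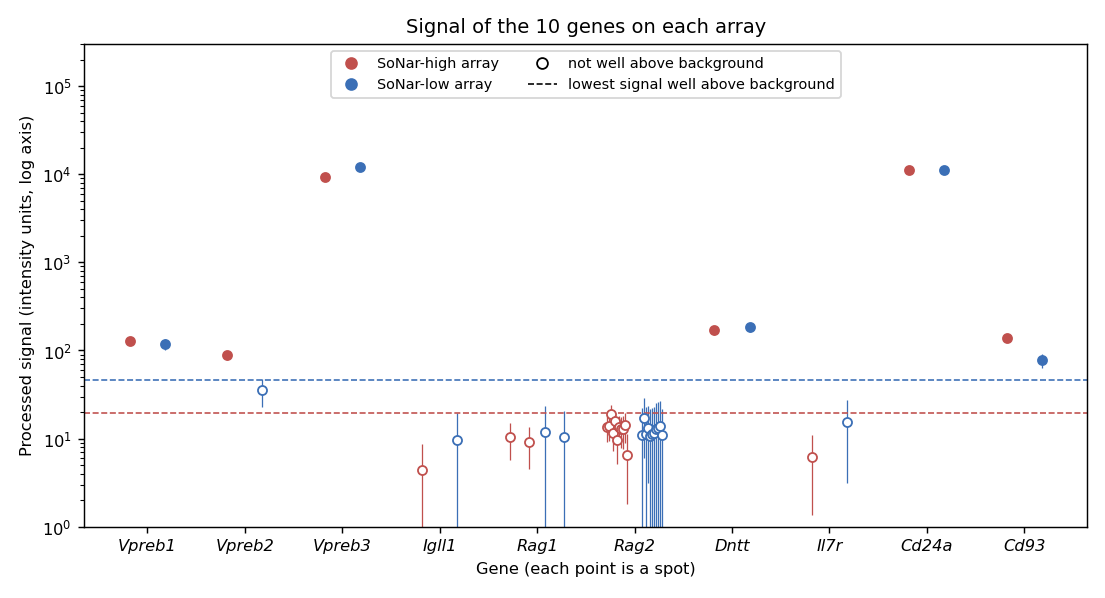
Processed signal (log axis, intensity units) of each spot of the 10 genes on SoNar-high (red, left) and the SoNar-low array (blue, right), with bars for the scanner software's error of that spot. Open points were not well above background, and dashed lines mark the lowest signal that was, 19.7 on SoNar-high and 46.4 on SoNar-low. Igll1, Rag1, Rag2 and Il7r lie below the line of their array in every spot.

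The surrogate light chain genes and their relative Vpreb3 gave unlike pictures. Vpreb1 encodes the variable-like part of the surrogate light chain. Its processed signal was 128 on SoNar-high and 118 on SoNar-low, with a software error of 13.5 and 16.2. The log2 difference was -0.03, smaller than the combined software error of 0.25 on the log2 scale. With other scalings it ran from -0.64 with median scaling to 0.19 with the percentile of spots that both arrays detected, and it was -0.45 in the authors' value table, so several alternatives exceed that error. The software error covers the spot and its array and not the spread between samples, which 1 array per group cannot show.

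Vpreb2, the copy of Vpreb1, gave a processed signal of 88.1 on SoNar-high and 35.3 on SoNar-low, where it was not well above background. Set against the lowest detected level of SoNar-low, SoNar-high was 1.72-fold higher, and 1.12-fold higher with median scaling. This is not a strict minimum, since undetected signals on SoNar-low reached 66.1, above the lowest detected one of 46.4. The SoNar-low signal of 35.3 lay above the highest signal left undetected on SoNar-high, 27.4. The same signal would thus have counted as detected there. The authors' value table holds log2 values of 6.56 for SoNar-high and 5.87 for SoNar-low. Their distance of 0.69 is smaller than 0.78, the log2 value of the 1.72-fold, so that fold is not a minimum under every scaling.

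Vpreb3 encodes a relative of VpreB that binds newly made heavy chains inside the cell. Its processed signal was 9345 on SoNar-high and 12061 on SoNar-low, both far above the limits. The log2 difference was -0.51, which is 2.51 times its combined software error of 0.20, and it stayed below 0 under the 6 alternatives that can change it, between -1.13 and -0.27. The other 4 of the 10 alternatives return the same value by construction for a gene with 1 probe in 1 spot. Of all measured genes, 21.7% had a difference at least as low.

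Igll1 encodes lambda5, the constant-like part of the surrogate light chain. Its probe gave a background-subtracted signal of 3.08 on SoNar-high and 1.83 on SoNar-low. The middle 95% of the 153 negative control spots reached 3.08 on SoNar-high and 5.35 on SoNar-low, so Igll1 lay at the upper edge of the controls on SoNar-high and among them on SoNar-low. No fold is given, since neither array detected it. Its neighbour Vpreb1 was detected on both arrays.

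Among the recombination genes, the recombinase pair was not well above background in any spot. Rag1 and Rag2 encode the subunits of the enzyme that cuts at the recombination signals, and the genes are neighbours, with 0 genes between them. The 2 probes of Rag1 gave background-subtracted signals of 10.1 and 8.83 on SoNar-high, against -4.76 and -15.9 on SoNar-low. Both lay above the negative controls on SoNar-high and among them on SoNar-low.

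Rag2 had a probe printed in 10 spots and a second probe in 1 spot, which gives the technical spread within an array. Over the 10 spots the processed signal was 9.66 at the lowest, 13.6 at the median and 19.1 at the highest on SoNar-high, against 10.8, 12.1 and 17.3 on SoNar-low. The ranges overlap, but dim processed signals are raised to a positive floor. In processed signal the middle 95% of the negative controls reached 5.50 on SoNar-high and 13.3 on SoNar-low. The lowest Rag2 spot on SoNar-high, 9.66, lay above that limit, while the median on SoNar-low, 12.1, lay below it. The overlap therefore does not show that the Rag2 signals were similar. On either array 0 of 10 spots was well above background. In background-subtracted signal the 10 spots averaged 13.2 ± 2.34 on SoNar-high and 4.52 ± 12.4 on SoNar-low (SD between spots of 1 array, not between samples). The software marked 2 of the 10 spots as outliers on at least 1 array, and these were the 2 lowest on SoNar-low. Over the other 8 spots the averages were 13.1 ± 2.64 on SoNar-high and 10.1 ± 4.28 on SoNar-low.

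The 4 genes detected on neither array had 15 spots in all. Of these, 15 lay above the middle 95% of the negative controls on SoNar-high and 9 on SoNar-low. That limit is a lenient one, since 93.9% of all non-control spots on SoNar-high and 76.0% on SoNar-low lay above it. The background-subtracted signals are shown beside those of the negative controls.

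**Figure D2:**
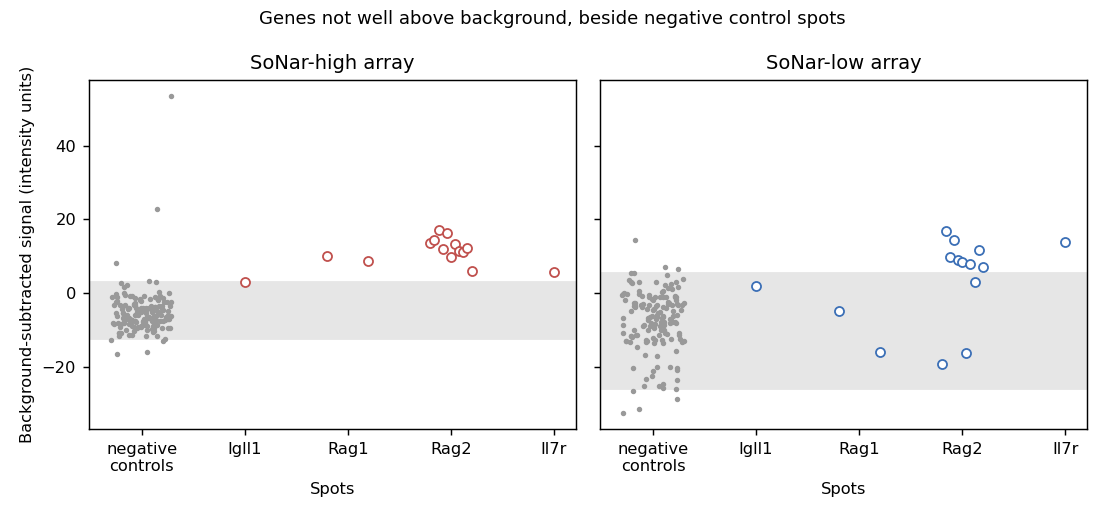
Background-subtracted signal (intensity units) of the 153 negative control spots (grey) and of each spot of Igll1, Rag1, Rag2 and Il7r (open circles) on SoNar-high (left) and the SoNar-low array (right). The grey band is the middle 95% of the negative controls, from -12.4 to 3.08 on SoNar-high and from -26.0 to 5.35 on SoNar-low, and the Rag1 spots lie above it on SoNar-high and inside it on SoNar-low.

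Dntt was the recombination gene that both arrays detected. It encodes terminal transferase, which adds bases without a template where gene segments are joined. Its processed signal was 169 on SoNar-high and 182 on SoNar-low. The log2 difference of -0.26 was close to the combined software error of 0.22 and ranged from -0.87 to -0.04 over those 6 alternatives. Of all measured genes, 42.3% had a difference at least as low.

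Among the surface proteins, Il7r, the alpha chain of the IL-7 receptor, was not detected. Its background-subtracted signal was 5.63 on SoNar-high and 13.8 on SoNar-low, and both lay above the middle 95% of the negative controls of their array. No fold is given.

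Cd24a encodes heat-stable antigen, a small anchored glycoprotein that is abundant on immature B cells and also found on other blood cells. Its processed signal was 11273 on SoNar-high and 11258 on SoNar-low. The log2 difference was -0.14, within the combined software error of 0.20. It was -0.76 with median scaling, beyond that error, and turned to 0.07 with the percentile of spots that both arrays detected and to 0.10 with cyclic loess.

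Cd93, the antigen of the AA4.1 antibody, marks early and transitional B cells and is also made by myeloid and endothelial cells. Its processed signal was 139 on SoNar-high and 77.9 on SoNar-low, with a software error of 14.6 and 14.0. The log2 difference of 0.69 was 2.29 times the combined software error of 0.30, and 9.32% of all measured genes had one at least as high. It stayed above 0 under the same 6 alternatives but ranged from 0.08 with median scaling to 0.90, and it was 0.22 with normexp background correction and 0.29 in the authors' value table. When a signal over 2 times the lowest detected one was asked for, Cd93 no longer counted as detected on SoNar-low.

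Markers of other cells that make Cd93 were read beside it. Over all named genes, 77.5% were detected on SoNar-high and 51.1% on SoNar-low. The monocyte or macrophage list had 4 of 6 genes well above background on SoNar-high and 3 of 6 on SoNar-low. Its summed level was 2.54 on SoNar-high and 1.08 on SoNar-low in units of each array's 75th percentile. A summed level adds, for each gene of a list, the mean linear signal of all its spots. Outlier spots and undetected probes are included there, unlike in the log2 differences. Csf1r, the receptor of macrophage growth factor, had a log2 difference of 1.25 and Itgam, an integrin chain of myeloid cells, one of 0.82. With normexp, Csf1r was at 0.66 and Itgam at 0.65. The 2 Itgam probes used differed, from 0.25 to 1.38. Lyz2, the lysozyme of macrophages and neutrophils, gave 88.1 on SoNar-high and 12.1 on SoNar-low, where it was not detected. Ccr2 was detected on neither array. The stromal or endothelial list had 7 of 8 genes detected on SoNar-high and 5 of 8 on SoNar-low. Its summed level was 16.5 on SoNar-high and 27.5 on SoNar-low. Most of that sum came from 1 gene, Alpl, with a processed signal of 7773 on SoNar-high and 12517 on SoNar-low. The median log2 difference of the list was 0.69 over 5 measured genes. Kdr stood at 1.54, from 1 of its 2 probes, and at 1.20 with normexp. Alpl, the only measured gene of the list below 0, stood at -0.83. Cxcl12 was detected on neither array. The part of these cells in the Cd93 difference was not tested.

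As a group, the 5 measured genes had 0 members past 2-fold upward on SoNar-high and 0 past 2-fold downward. Of all 10517 measured genes, 6.55% differed by at least 2-fold, 4.87% upward and 1.68% downward. Their median log2 difference was -0.14, beside -0.17 for all measured genes. Each of the 5 values rests on 1 probe in 1 spot.

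**Figure D3:**
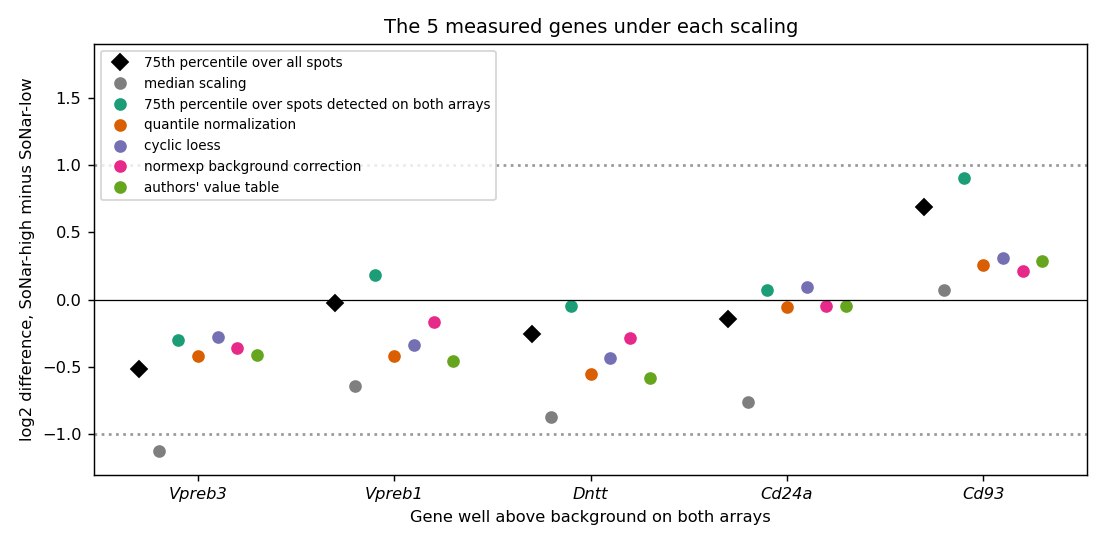
Difference in log2 level, SoNar-high minus SoNar-low, of the 5 genes well above background on both arrays, under the main scaling (black diamonds) and 6 alternatives that change the values (coloured points), with dotted lines at a 2-fold difference. Vpreb3 and Dntt lie below 0 and Cd93 above 0 throughout, while Vpreb1 and Cd24a lie on both sides, and the only value past 2-fold is that of Vpreb3 with median scaling, -1.13.

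The genes that work with these markers were read from 6 lists. Over the 92 distinct genes measured on both arrays, 6 were at least 2-fold higher on SoNar-high (6.52%, against 4.87% of all measured genes) and 1 was at least 2-fold lower (1.09%, against 1.68%).

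The pre-B receptor signals through Cd79a and Cd79b to kinases and adaptors. Of 19 such genes on the array, 16 were measured on both, and their median log2 difference was -0.20 beside -0.17 for all genes. Pik3cd, a PI3-kinase catalytic subunit, had a difference of 1.08, with a geometric mean signal over its 3 probes of 1227 on SoNar-high and 524 on SoNar-low, but its probes differed widely, from 0.15 to 2.91. Blnk, the adaptor that links Syk to downstream enzymes, gave a processed signal of 6661 on SoNar-high and 9901 on SoNar-low, a difference of -0.72. Prkcb, the protein kinase C form of B cells, stood at -0.72. Lyn and Fyn, kinases of the Src family, were detected on SoNar-high alone, 2 of 19 against 26.5% of all named genes.

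The enzymes that repair the breaks made by the recombinase were all measured. Of these 16 end joining and accessory genes, 0 passed 2-fold in either direction, and their differences ran from -0.66 to 0.07 with a median of -0.32. Xrcc5, which encodes the Ku80 end-binding subunit, gave 1851 on SoNar-high and 2647 on SoNar-low, a difference of -0.66. Mdc1, a scaffold at broken ends, stood at -0.55. Trp53bp1, which guides the choice of repair path, stood at -0.05 and Atm, the kinase that signals the breaks, at -0.0014.

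Of 15 genes of IL-7 receptor signalling, 13 were measured on both arrays, 0 passed 2-fold in either direction, and the median was -0.33. Crlf2, the chain that pairs with Il7r in the receptor for TSLP, gave 2678 on SoNar-high and 4531 on SoNar-low, a difference of -0.90. Jak1, the kinase bound to Il7r, stood at -0.70. Il2rg, the common gamma chain that completes the IL-7 receptor, stood at 0.36, and Socs3, a feedback inhibitor, at 0.22. Ccnd2 and Cish were detected on SoNar-high alone, 2 of 15 against 26.5% of all named genes.

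Transcription factors of early B cells had a median of -0.13 over 20 measured of 24 genes, with 1 at least 2-fold higher and 0 lower. That gene was Ikzf3, the factor Aiolos, which rises at the pre-B stage, with a signal of 499 on SoNar-high and 172 on SoNar-low, a difference of 1.39. Ebf1, which drives early B cell genes including the surrogate light chain genes, gave 553 on SoNar-high and 948 on SoNar-low, a difference of -0.92. Bach2 stood at -0.86, from 1 of its 2 probes, and Lef1 at 0.22. Ikzf2 and Erg were detected on neither array, 2 of 24 against 22.5% of all named genes.

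Markers of earlier and later stages had nearly the same median, -0.11 in both lists. Among 14 measured earlier markers, 2 were at least 2-fold higher. Notch1 stood at 1.52 on the 1 of its 2 probes that was used, with a signal of 608 on SoNar-high and 192 on SoNar-low. Csf1r stood at 1.25 over 2 of its 3 probes and at 0.66 with normexp. The 1 gene at least 2-fold lower was Ly6d, a marker of B-committed lymphoid progenitors, with 139 on SoNar-high and 251 on SoNar-low, a difference just past 2-fold that was -0.88 on the log2 scale with normexp. Gfra2 stood at -0.65. Kit and Mme were detected on neither array, 2 of 18 against 22.5% of all named genes. Cd34 and Ly6a were detected on SoNar-high alone, 2 of 18 against 26.5%.

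Among 14 measured later markers, 2 were at least 2-fold higher and 0 lower. Cd22, an inhibitory receptor of B cells, gave 3093 on SoNar-high and 1252 on SoNar-low, a difference of 1.16. Prdm1, the factor Blimp-1 of plasma cells, gave 309 on SoNar-high and 100.1 on SoNar-low, a difference of 1.48 that was 0.72 with normexp. Ms4a1, which encodes CD20, gave 753 on SoNar-high and 1208 on SoNar-low, a difference of -0.83, and Cd2 stood at -0.63. Il2ra, Fcer2a, Cr2, Cd40 and Cxcr5 were detected on SoNar-high alone, 5 of the 19 later markers on the array, a pattern that 26.5% of all named genes shared.

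**Figure D4:**
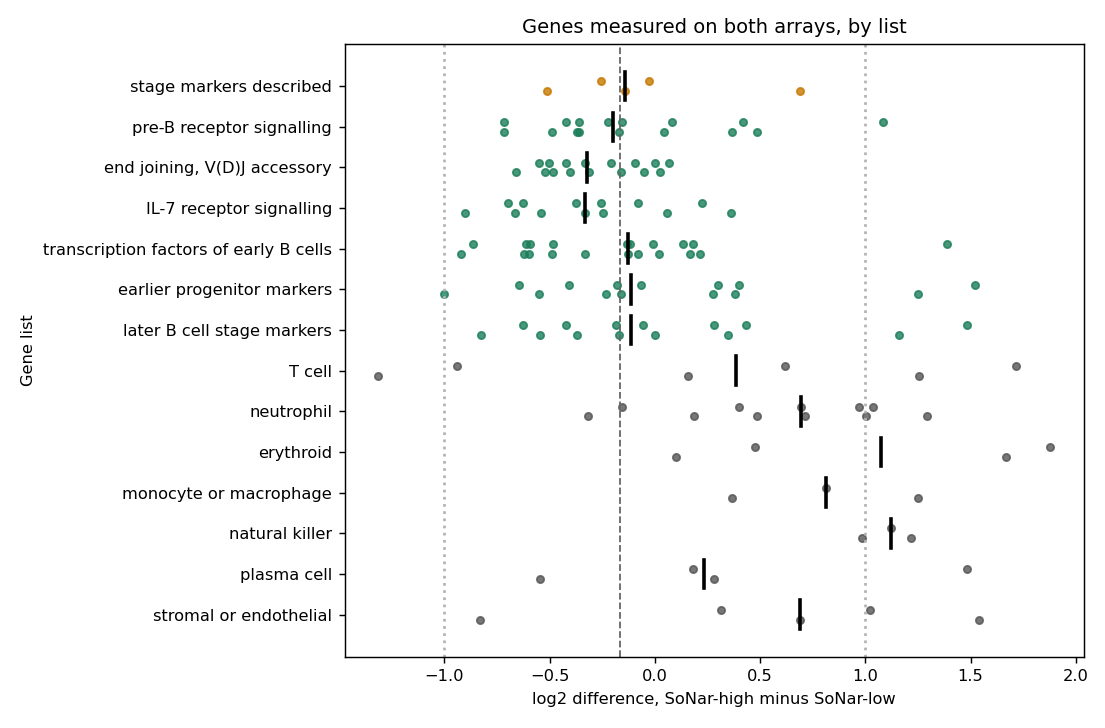
Difference in log2 level, SoNar-high minus SoNar-low, of every gene measured on both arrays, by list: the 5 measured stage markers (orange), 6 lists of related genes (green) and 7 lists of other cell types (grey), with list medians as black bars. The dashed line is the median of all genes, -0.17, and dotted lines mark 2-fold. Under the main scaling, orange and green list medians lie between -0.33 and -0.11, and grey ones between 0.23 and 1.12. The grey medians rest on 3 to 11 measured genes and are not given under other scalings. Single genes moved both ways with quantile normalization, Cd5 from 0.62 to 0.09 and S100a8 from 0.71 to 0.88.

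Other cells can also make several of the stage markers, and the counts of detected genes below stand beside 77.5% of all named genes on SoNar-high and 51.1% on SoNar-low. T cell progenitors use Rag1, Rag2, Dntt and Il7r. The T cell list had 10 of 13 genes detected on SoNar-high and 6 of 13 on SoNar-low. Its summed level was 3.22 on SoNar-high and 4.32 on SoNar-low. The largest part of that sum came from Lck, with a processed signal of 858 on SoNar-high and 1490 on SoNar-low. The median log2 difference of the list was 0.39 over 6 genes. Its measured genes went both ways. Cd4 stood at 1.72, from 1 of its 2 probes, and Cd3e, a chain of the T cell receptor complex, at 1.26. The used Cd4 probe gave a signal of 881 on SoNar-high and 243 on SoNar-low. In the summed level Cd4 counted with its mean over all spots, 115 on SoNar-high and 37.2 on SoNar-low. The kinase Lck stood at -0.94 and Thy1, a surface protein of thymocytes, at -1.31. With normexp, Cd4 was at 1.29, Cd3e at 0.72, Lck at -0.84 and Thy1 at -0.91. Cd3d, Cd8b1 and Bcl11b were detected on neither array. Neutrophils and erythroid cells carry Cd24a. The neutrophil list had 13 of 13 genes detected on SoNar-high and 11 of 13 on SoNar-low, with a summed level of 48.2 on SoNar-high and 38.4 on SoNar-low and a median of 0.70. The erythroid list had 9 of 10 genes detected on SoNar-high and 4 of 10 on SoNar-low, with a median of 1.07 over 4 genes. Its summed level was 12.1 on SoNar-high and 9.62 on SoNar-low. Most of that sum came from Tfrc, with a mean processed signal of 4842 on SoNar-high and 3918 on SoNar-low. The log2 difference of Tfrc was 0.10. Natural killer genes had 5 of 8 detected on SoNar-high and 3 of 8 on SoNar-low, with a summed level of 1.87 on SoNar-high and 0.966 on SoNar-low. Plasma cell genes had 5 of 6 detected on SoNar-high and 4 of 6 on SoNar-low, with a summed level of 2.62 on both. In bulk RNA, fewer cells of a type and less RNA per cell cannot be told apart. The part of these cells in the stage marker values was not tested.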

How the data were processed

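Total RNA of sorted B-ALL cells was measured on 1 single-colour Agilent array per group, grouped by source name. Spot intensity in the deposited scanner files was background-subtracted and detrended within each array by Agilent Feature Extraction 11.0.1.1, per the file headers, while the submitters' processing notes name version 9.1. On dim spots the deposited processed signal is raised to a positive floor. A deposited table of log2 values from the authors, whose columns both have a median of 5.90, served as an alternative. How it was normalized is not given in the sources used here. Its columns were matched to the arrays by sample name, and its differences are SoNar-high minus SoNar-low. Each column correlated with log2 of its own array's processed signal (r = 0.995 for SoNar-high and 0.993 for SoNar-low). The correlation with the other array is not given, so these values alone do not settle the direction.

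Levels were log2 processed signal after subtracting, per array, its 75th percentile (non-control spots). Control spots and 685 outlier spots were left out, except that summed levels kept the outlier spots. Repeat spots were averaged, and detection of a probe needed most of its spots well above background. Of 39429 probes, 27234 were named through their RefSeq accession (RefSeq on GRCm38.p6, while the array annotation is of mm9, so the array's own coordinates are not given, and the upstream stretches shown have GRCm38.p6 coordinates). Genes took the mean of their probes detected on both arrays, and a log2 difference of at least 1 in size was counted. No p-value was computed. Depth in the sense of reads does not apply.

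The genes, the lists and the alternatives were chosen with earlier results of these data known. The text names all 10 genes and, from each list of related genes, up to 2 highest and 2 lowest whose sign held under normexp and quantile normalization, and any past 2-fold. A gene that this rule names is not reported here. Genes detected on 1 array or neither, the B lineage markers and the genes of other cell types that are named fall outside this rule and were chosen after their values were seen. Normexp used the median spot signal with an offset of 50. The scripts were tested on simulated data with known differences. Probe sequences were not used here. Python 3.11.15, numpy 2.4.6, pandas 2.3.3, R 4.3.3 and limma 3.58.1 were used.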

Additional observations from a re-analysis of the deposited data

How the results depend on the processing

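No paired analysis was possible because 1 array stood for each group, which also left no replicate to leave out. Of the 10 alternatives for the log2 difference, 4 cannot change a gene with 1 probe in 1 spot. Under the other 6, Vpreb3 and Dntt stayed below 0 and Cd93 above 0. The median of all genes, -0.17 in the main setting, was itself below 0 and ran from -0.78 to 0.05 under these 6. Against 0 genes of the 10 at least 2-fold higher on SoNar-high, 1 was so with detection asked of only 1 array and with no filter, both of which admit dim values. Against 0 at least 2-fold lower, 1 was so with median scaling and 2 with no filter. The members' median minus that of all genes, 0.02, was -0.21 with quantile normalization, -0.15 with cyclic loess, -0.19 in the authors' value table, -0.23 with detection asked of only 1 array and -0.30 with no filter. Members detected on SoNar-high alone numbered 2 in place of 1, with Cd93 added, when detection needed 2 times the lowest detected signal, and 1 with 1 common limit for both arrays, while 4 members were detected on neither array under both.

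Against 512 genes of all at least 2-fold higher, the count was 139 with median scaling, 806 with the percentile over jointly detected spots, 262 with normexp, 3203 with detection asked of only 1 array and 2775 with no filter. Against 177 lower it was 3306 with median scaling, 67 with that percentile, 350 with quantile normalization, 300 with cyclic loess, 60 with normexp, 430 in the authors' table and 1751 with no filter. List genes at least 2-fold higher, 6, were 0 with median scaling and 14 under either looser filter. Those at least 2-fold lower, 1, were 31 with median scaling, 0 with that percentile and with normexp, and 3 with quantile normalization, cyclic loess and the authors' table. Detection on at least 1 array took the list medians minus that of all genes to -0.31 for pre-B receptor signalling, -0.40 for end joining, -0.40 for IL-7 receptor signalling and -0.27 for transcription factors. No filter took them to -0.34 for IL-7 receptor signalling, -0.19 for transcription factors and 0.27 for later markers. Whole-array shifts and added dim probes change counts by construction, and for the other settings the cause was not tested.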
